A study of Danio rerio with 16 samples.

Results

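The livers of fasted zebrafish that were exposed to fluoxetine (Fasted/FLX) were compared with the livers of fasted zebrafish kept in water without the drug (Fasted). Fluoxetine (FLX) is an antidepressant that blocks serotonin reuptake and that reaches surface waters through sewage. The comparison took the 4 arrays titled for Fasted/FLX and the 4 titled for Fasted, which are 8 of the 16 arrays of the series. All fish were adult females held for 7 days. FLX was at 540 ng/L in the water of Fasted/FLX fish and at 0 ng/L in that of Fasted fish, and neither group was fed. The other 8 arrays hold the same pair of waters with daily feeding (Fed/FLX and Fed), and they enter here through the shared estimate of spread and through the test of whether the FLX difference depended on feeding. Each array measured 1 pool of 2 livers. Each group was kept in 1 tank of 20 fish, so that a difference between groups and a difference between tanks cannot be told apart, and the p-values below measure the spread between pools from a tank.

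MicroRNAs (miRNAs) are short RNAs that pair with messenger RNAs, mainly through a stretch near their 5′ end called the seed, and lower the output of those messengers. Members of a family share a seed and largely share targets. Neighbouring miRNA genes are often cut from the same primary transcript, and each hairpin can give a 5p and a 3p arm. In the vertebrate liver, miR-122 is the dominant miRNA and is known for its part in lipid and cholesterol metabolism.

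The array carried 248 zebrafish miRNAs with 60 spots each. Values are RMA values, background-corrected and quantile-normalized intensities on a log2 scale, so a difference of 1 is 2-fold. Detection on an array required that 50% or more of a miRNA's spots stood well above background. By this rule 77 miRNAs were detected on all 4 arrays of at least 1 of the groups, 28 on some arrays only, and 143 on none of the 8. On every array the number of saturated miRNA spots was 0. The arrays lay on 2 slides, each with 2 arrays of every group. The FLX arrays occupied slide columns 2 and 4 throughout, with columns 1 and 3 left to arrays without FLX, so that slide column and FLX cannot be told apart.

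A small set of hepatic miRNAs differed between Fasted/FLX and Fasted, each by less than 1 on the log2 scale of the RMA values. By limma, 16 of 248 miRNAs (6.45%) differed at an adjusted p under 0.05. In Fasted/FLX, 7 were higher (2.82%) and 9 were lower (3.63%). Without quantile normalization limma called 8, of which 7 were higher and 1 was lower, and 0 of the 9 lower miRNAs named here was among them. The higher miRNAs were miR-29a, miR-29b, let-7i, miR-139, miR-456, miR-99 and miR-30e-3p. The lower miRNAs were miR-19c, miR-20b, miR-181a-5p, miR-181c, miR-2190, miR-26a, miR-30a, miR-30b and miR-10d-3p. The absolute log2 differences of the 16 ran from 0.36 to 0.70, which for miRNAs near or below the detection limit is the difference of the normalized values and no measured fold. With the 2-fold minimum of the study's methods the count was 0 by limma, 0 by the methods' own analysis of variance, and 0 at an unadjusted p under 0.05, where 42 miRNAs (16.9%) differed without a minimum. With arrays scaled to a 75th percentile, on total gene signals or without background correction, 2 or 3 miRNAs passed the 2-fold minimum, miR-181c in each of these settings. These settings cut low signals at a floor before the logarithm, and miR-181c was not detected on any of the 8 arrays. With either 75th percentile scaling of spots the other was miR-30a, likewise not detected. On total gene signals the other was miR-739_v12.0 (-1.06, limma adjusted p = 0.00982), which had 100% of its spots well above background in both groups. Without background correction 3 passed, of which 1 was higher and 2 were lower in Fasted/FLX. On simulated data with the same groups of arrays, 87% of values set to change 2-fold were called, at a median absolute log2 difference of 0.91. Only miRNAs from the 49 detected on all 16 arrays were set to change. The changes were balanced between higher and lower, and every simulated array started from the same spot means. Differences in brightness between arrays, as seen in the data, were thus not simulated. The share that would also pass the 2-fold minimum was not computed.

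**Figure D1:**
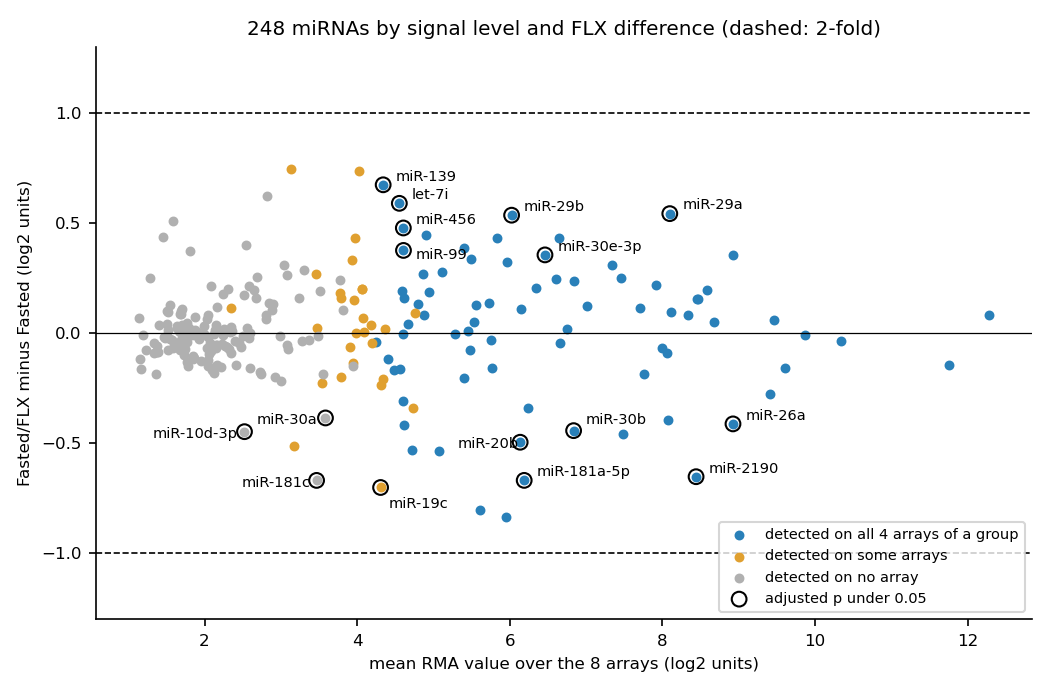
Each point is 1 of the 248 miRNAs, with its mean RMA value over the 8 arrays (log2 units) on the horizontal axis and Fasted/FLX minus Fasted (log2 units) on the vertical axis. Colours show on how many arrays the miRNA was detected, rings mark the 16 with an adjusted p under 0.05, and every point lies between the dashed lines at 2-fold.

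Of the 16, 12 were among the 77 detected miRNAs, 7 of them higher and 5 lower. miR-19c was detected on some arrays, and miR-181c, miR-30a and miR-10d-3p on none, so that no fold is given for those 3. The 4 arrays of Fasted/FLX and the 4 of Fasted did not overlap for 15 of the 16, the exception being miR-10d-3p. Over all miRNAs the groups did not overlap for 32 (12.9%), 17 of them higher (6.85%) and 15 lower (6.05%). All 16 had the same direction on both slides, and all probe sequences of each of the 16 moved the same way. For the 15 without overlap the direction on each slide follows from the lack of overlap. The probe sequences hold the same spots from which the called values were made. Neither is therefore independent evidence. The 16 miRNAs also kept their direction in every processing setting that gave them a value. All of these settings used the same arrays. Blocking by slide or replicate, the variance trend and the filter for detected miRNAs leave the differences unchanged, so they could not turn a sign. The number of calls was less stable. Without Fasted replicate 1 only miR-456 and miR-181c were called, without Fasted/FLX replicate 1 or replicate 4 the count was 3, and without Fasted/FLX replicate 3 it was 8. Over the 8 fits that each left out 1 of these arrays, miR-456 and miR-181c were called in all 8, miR-2190 in 6, miR-20b, miR-181a-5p, miR-19c and miR-30a in 5, miR-29a and miR-26a in 4, miR-139 in 3, let-7i, miR-30e-3p and miR-10d-3p in 2, miR-29b and miR-30b in 1 and miR-99 in 0. With the slide as a block limma called 12 miRNAs, 11 of them among the 16, and let-7i, miR-29b, miR-99, miR-30b and miR-10d-3p missed the threshold (adjusted p = 0.0646 for each). Among the 77 detected miRNAs the median log2 difference was 0.06, and for 69 of them the 95% interval of the difference lay within 2-fold in both directions. These intervals are those of the quantile-normalized values and do not cover other scalings. miR-739_v12.0 differed by -0.15 in this fit and by -1.06 on total gene signals.

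**Figure D2:**
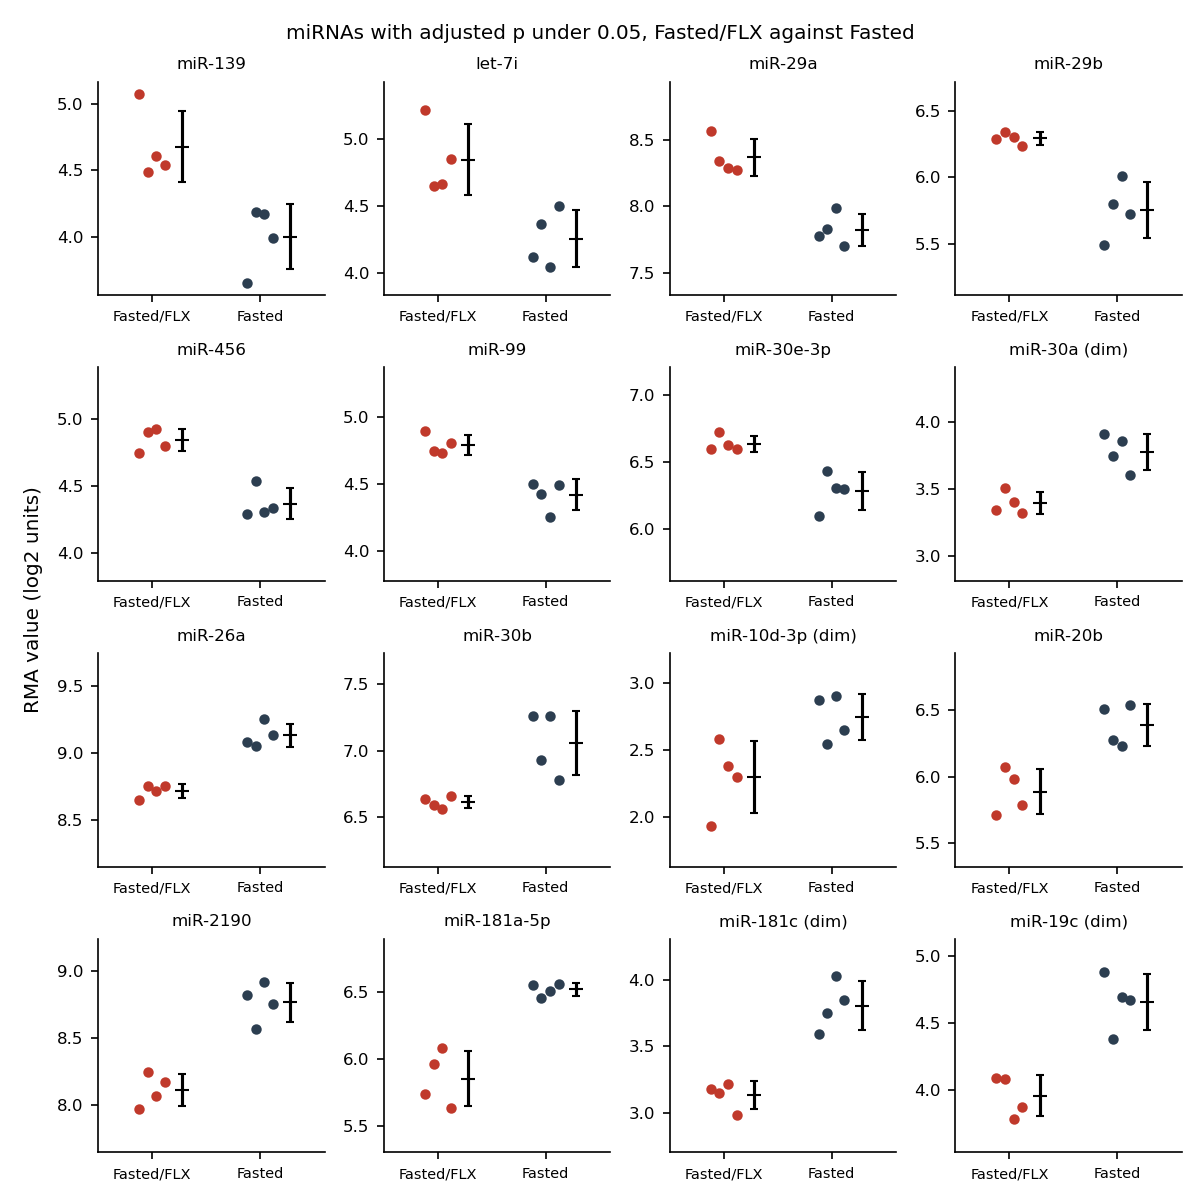
RMA value (log2 units) of the 16 miRNAs on each Fasted/FLX array (red) and each Fasted array (dark blue), with the mean and SD in black, ordered by the difference. Panels marked dim were not detected on all 4 arrays of either group, and the groups overlap only for miR-10d-3p.

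The miR-29 family, whose known targets in mammals include collagens and other matrix proteins, was higher in both of its measured members. miR-29a read 8.57, 8.34, 8.29 and 8.28 on the Fasted/FLX arrays, against 7.78, 7.83, 7.99 and 7.70 on the Fasted arrays. All 4 Fasted/FLX values lay above all 4 Fasted values, and the difference was 0.54 (SE 0.13, 1.46-fold, limma adjusted p = 0.0227). miR-29b read 6.29, 6.34, 6.30 and 6.23 on the Fasted/FLX arrays, against 5.49, 5.80, 6.01 and 5.72 on the Fasted arrays. The Fasted/FLX values of miR-29b lay close together (SD 0.05) and the Fasted values were spread more widely (SD 0.21). Its difference was also 0.54 (SE 0.15, 1.45-fold, limma adjusted p = 0.0491). The 2 probe sequences of miR-29b differed by 0.64 and 0.30. The genes of miR-29a and miR-29b are neighbours in the genome.

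The miR-181 family, known in the mouse for its part in lymphocyte development, was lower. miR-181a-5p read 5.74, 5.96, 6.08 and 5.63 on the Fasted/FLX arrays, against 6.56, 6.46, 6.51 and 6.56 on the Fasted arrays. Here the Fasted arrays were the tight group (SD 0.05), and all lay above the highest Fasted/FLX array. The difference was -0.67 (SE 0.15, 1.59-fold lower in Fasted/FLX, limma adjusted p = 0.0197). miR-181c read 3.18, 3.15, 3.22 and 2.98 on the Fasted/FLX arrays, against 3.59, 3.75, 4.03 and 3.85 on the Fasted arrays, a difference of -0.67 (SE 0.10, limma adjusted p = 8.5e-04). Without quantile normalization the difference of miR-181c was -0.53 (limma adjusted p = 0.0566). The groups were fully apart, but miR-181c stayed below the detection limit throughout. The passenger arm miR-181a-3p, likewise not detected, differed by -0.16 (adjusted p = 0.289). The annotation holds 5 gene copies of miR-181a, 1 of which neighbours miR-181c.

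The miR-17/92 clusters, which promote cell proliferation in mammals, had 2 of 20 members called, both lower, with a median log2 difference of 0.03 over the 20 (6.45% of all miRNAs were called). miR-20b read 5.71, 6.08, 5.98 and 5.78 on the Fasted/FLX arrays, against 6.50, 6.27, 6.23 and 6.54 on the Fasted arrays (difference -0.50, SE 0.11, 1.41-fold lower in Fasted/FLX, limma adjusted p = 0.0172). miR-19c read 4.09, 4.08, 3.78 and 3.87 on the Fasted/FLX arrays, against 4.88, 4.38, 4.69 and 4.68 on the Fasted arrays. It differed by -0.70 (SE 0.15, limma adjusted p = 0.0172) and reached the detection limit on 1 of the Fasted/FLX arrays and on 3 of the Fasted arrays. Both lay fully below their Fasted values. Their genes are neighbours, in a cluster that on this array also holds miR-18c (-0.20, adjusted p = 0.507) and miR-363 (-0.21, adjusted p = 0.656). Relatives in other clusters were not called. They differed by 0.05 for miR-20a-5p (95% interval from -0.18 to 0.28), 0.08 for miR-19b-3p, 0.11 for miR-19a-3p and -0.23 for miR-19d (limma adjusted p = 0.340).

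Gene neighbourhood was counted over the whole array. In the RefSeq annotation, 242 of the 248 miRNAs matched a miRNA gene by name. Of the 16 called miRNAs 15 matched, the exception being miR-2190. In all, 136 pairs of array miRNAs had genes within 10 kb of each other. In 3 of the 136 pairs both miRNAs were called, and in all 3 both moved the same way. The pairs were miR-29a with miR-29b (higher), miR-181a-5p with miR-181c (lower) and miR-19c with miR-20b (lower). They hold 6 of the 16 called miRNAs. How many such pairs would arise without regard to neighbourhood was not computed. The members of each pair also have similar sequences or belong to the same family or cluster, and whether a probe also took up label from a near-identical relative was not tested.

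Of the 6 measured arms named miR-30, 3 were called, 2 lower and 1 higher (6.45% of all miRNAs were called). In zebrafish miR-30a is known for its role in bile duct formation. miR-30b read 6.64, 6.59, 6.56 and 6.66 on the Fasted/FLX arrays, against 7.26, 6.93, 7.26 and 6.78 on the Fasted arrays (difference -0.44, SE 0.13, 1.36-fold lower in Fasted/FLX, limma adjusted p = 0.0491). Without quantile normalization the difference of miR-30b was -0.12 (adjusted p = 0.846). miR-30a, not detected on any array, differed by -0.39 (SE 0.08, adjusted p = 0.0172). miR-30e-3p, the opposite arm of the miR-30e hairpin, read 6.60, 6.73, 6.63 and 6.60 on the Fasted/FLX arrays, against 6.10, 6.44, 6.30 and 6.30 on the Fasted arrays. It was higher by 0.36 (SE 0.09, 1.28-fold, limma adjusted p = 0.0272). Its 5p arm differed by 0.10 (adjusted p = 0.775), miR-30c by 0.16 (adjusted p = 0.195) and miR-30d by -0.16 (adjusted p = 0.392). The only higher call was thus miR-30e-3p, an opposite arm that does not share the seed of the 5p arm. The other calls, miR-30a and miR-30b, were lower.

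miR-26a, which restrains cell proliferation in mammalian liver, read 8.65, 8.76, 8.72 and 8.76 on the Fasted/FLX arrays, against 9.09, 9.05, 9.25 and 9.13 on the Fasted arrays. The difference was -0.41 (SE 0.10, 1.33-fold lower in Fasted/FLX, limma adjusted p = 0.0197). Without quantile normalization it was -0.07 (adjusted p = 0.869). The other member of the family, miR-26b, differed by 0.06 with a 95% interval from -0.06 to 0.17 (adjusted p = 0.656).

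The let-7 family, first known for the timing of development in worms and a brake on growth programmes in mammals, had 1 of 10 members called, where 6.45% of all miRNAs were called, and its median log2 difference was 0.13. let-7i read 5.22, 4.65, 4.66 and 4.85 on the Fasted/FLX arrays, against 4.12, 4.37, 4.05 and 4.50 on the Fasted arrays. It was higher by 0.59 (SE 0.17, limma adjusted p = 0.0491), and Fasted/FLX replicate 1 was the highest array. Between 91.7% and 100% of its spots were well above background on the Fasted/FLX arrays, against 3.39% to 34.5% on the Fasted arrays. It was thus detected on 4 Fasted/FLX and 0 Fasted arrays by the rule of 50% of spots, whereas the scanner software marked it as detected on all 8. let-7d, let-7f, let-7g, let-7h, let-7e, let-7c and let-7b had positive differences between 0.02 and 0.24 that were not called. let-7a differed by -0.03 (95% interval from -0.24 to 0.17), although without quantile normalization it was 0.51 higher in Fasted/FLX (adjusted p = 0.0942).

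**Figure D3:**
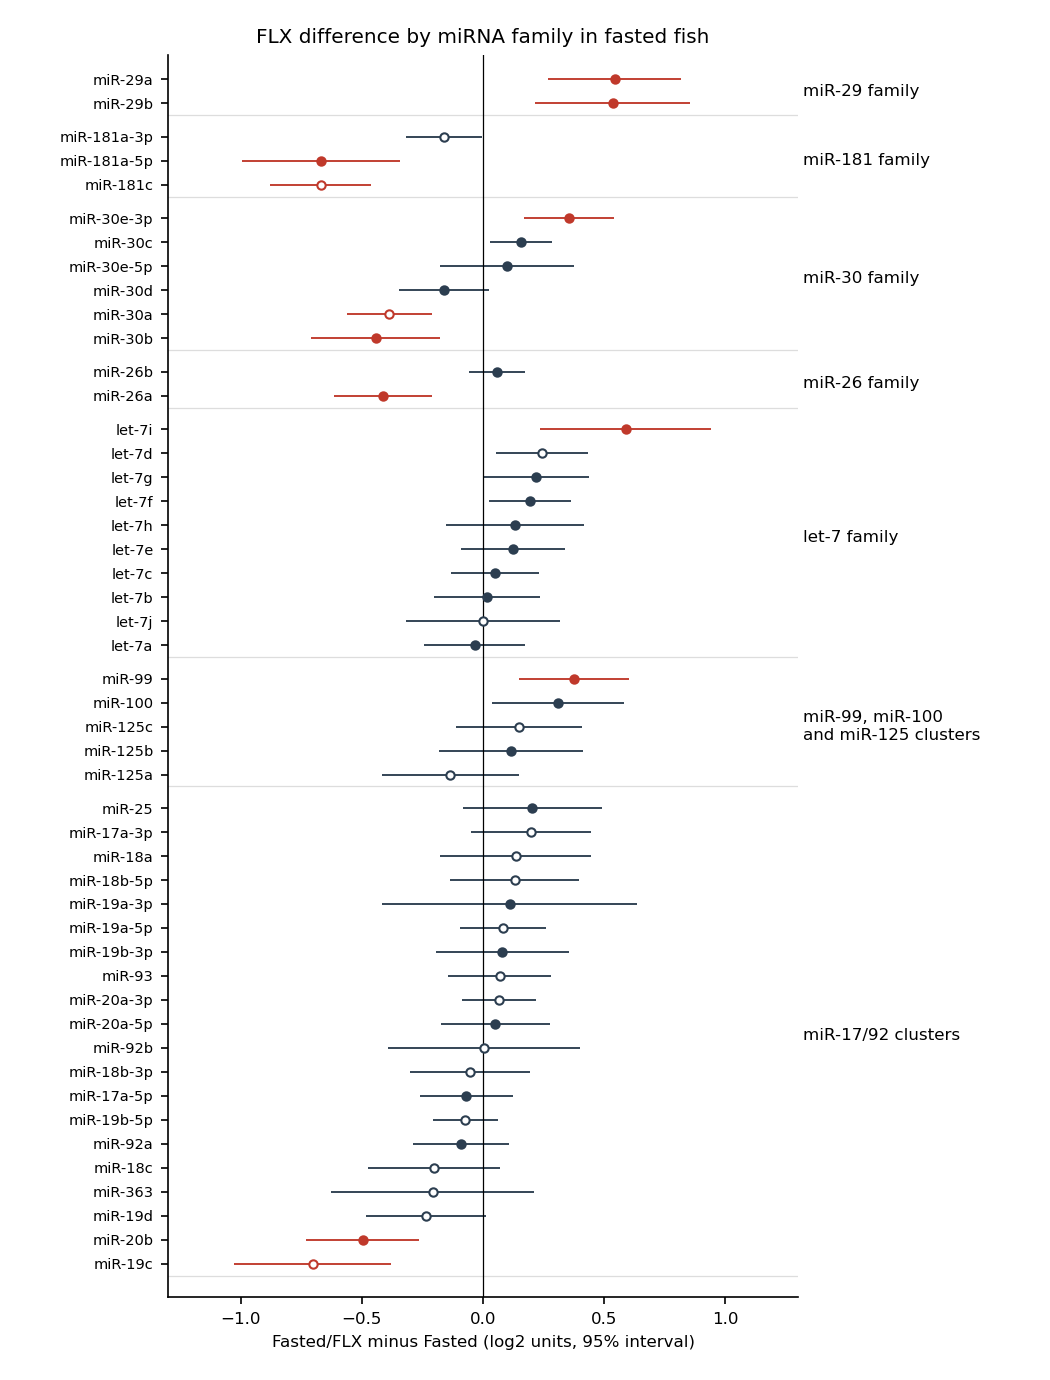
Fasted/FLX minus Fasted (log2 units) for each measured member of 7 miRNA families or clusters, with the 95% interval as a bar. Red marks an adjusted p under 0.05 and open circles mark miRNAs not detected on all 4 arrays of either group. Both miR-29 members lie to the right, and 2 of the 3 miR-181 arms lie to the left in red.

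miR-139, a miRNA that is lowered in several mammalian tumours, was detected on 4 Fasted/FLX arrays and on 0 Fasted arrays by the rule of 50% of spots, and on all 8 by the scanner software. It read 5.07, 4.49, 4.61 and 4.54 on the Fasted/FLX arrays, against 3.66, 4.19, 4.17 and 4.00 on the Fasted arrays. By the rule of 50% of spots the Fasted signal is only a bound. Against this bound the Fasted/FLX mean was 1.53-fold higher, without allowance for the spread between arrays (difference 0.67, SE 0.17, limma adjusted p = 0.0355). The miR-139 call held in 3 of the 8 fits with 1 array left out. It was lost with replicate as a block (limma adjusted p = 0.0718). miR-99, which with miR-100 targets the growth regulator mTOR in mammals, read 4.90, 4.75, 4.73 and 4.81 on the Fasted/FLX arrays and 4.50, 4.43, 4.25 and 4.50 on the Fasted arrays. The groups did not overlap, and it was detected on 4 and on 2 arrays (difference 0.38, SE 0.11, limma adjusted p = 0.0491). The miR-99 call did not last in any fit with 1 array left out (adjusted p from 0.0702 to 0.209). miR-100 differed by 0.31 (95% interval from 0.04 to 0.58, adjusted p = 0.229). Of the miR-99, miR-100 and miR-125 clusters 1 of 5 members was called, where 6.45% of all miRNAs were called.

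miR-456 and miR-2190 belong to none of these families. miR-456 had the smallest adjusted p, shared with miR-181c. It read 4.75, 4.90, 4.93 and 4.80 on the Fasted/FLX arrays, against 4.29, 4.54, 4.30 and 4.33 on the Fasted arrays (difference 0.48, SE 0.07, 1.39-fold, limma adjusted p = 8.5e-04). The lowest Fasted/FLX array stood above the highest Fasted array. With each array centred on the median of the miRNAs detected on all 16 arrays, the difference of miR-456 was 0.39 (limma adjusted p = 0.0787). miR-2190 read 7.97, 8.24, 8.07 and 8.17 on the Fasted/FLX arrays, against 8.82, 8.57, 8.92 and 8.76 on the Fasted arrays. It was 1.57-fold lower in Fasted/FLX (difference -0.65, SE 0.13, limma adjusted p = 0.0155), and its 2 probe sequences differed by -0.70 and -0.62. Without quantile normalization the difference of miR-2190 was -0.33 (limma adjusted p = 0.107). The remaining call, miR-10d-3p, was near the floor of the array and differed by -0.45 (SE 0.12, adjusted p = 0.0491), with 1 Fasted array below the highest Fasted/FLX array.

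Whether the FLX difference in fasted fish departed from that in fed fish was tested by the interaction, which compares Fasted/FLX minus Fasted with Fed/FLX minus Fed. limma called 4 of 248 miRNAs (1.61%), and these were miR-29a, miR-29b, miR-181a-5p and miR-181c. At an unadjusted p under 0.05 the count was 32. In all 4 the sign of the difference was turned round between feeding states.

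On the fed side, miR-29a read 7.42, 8.11, 7.85 and 7.65 in Fed/FLX, against 7.96, 8.12, 8.27 and 7.93 in Fed (difference -0.32, adjusted p = 0.131). The interaction was 0.86 (SE 0.18, limma adjusted p = 0.0192). miR-29b read 5.24, 6.09, 5.47 and 5.46 in Fed/FLX, against 6.03, 6.23, 6.11 and 5.90 in Fed (difference -0.50, limma adjusted p = 0.0432), with an interaction of 1.04 (SE 0.21, adjusted p = 0.0175). Fed/FLX replicate 2 was the highest of its group for both. Thus miR-29 was higher with FLX in fasted fish, while in fed fish its values were lower with FLX, past the threshold for miR-29b alone.

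miR-181a-5p read 6.95, 6.44, 6.70 and 6.52 in Fed/FLX, against 6.52, 6.14, 6.005 and 5.71 in Fed. It was higher by 0.56 with FLX in fed fish (limma adjusted p = 0.0299), and the interaction was -1.23 (SE 0.22, adjusted p = 0.00607). miR-181c, again not detected, read 3.90, 3.68, 3.71 and 3.91 in Fed/FLX, against 3.76, 3.46, 3.51 and 3.53 in Fed (difference 0.24, adjusted p = 0.135), with an interaction of -0.91 (SE 0.14, adjusted p = 0.00274). With each of the 16 arrays left out in turn, the interaction call of miR-181a-5p, miR-181c and miR-29b was kept in all 16 fits and that of miR-29a in 13. It was lost for miR-29a without Fasted replicate 1 (0.83, adjusted p = 0.0573), without Fasted replicate 4 (0.82, adjusted p = 0.0596) and without Fasted/FLX replicate 1 (0.78, adjusted p = 0.0595). Without quantile normalization the 4 interactions kept their sign but none was called (adjusted p from 0.0818 to 0.208).

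**Figure D4:**
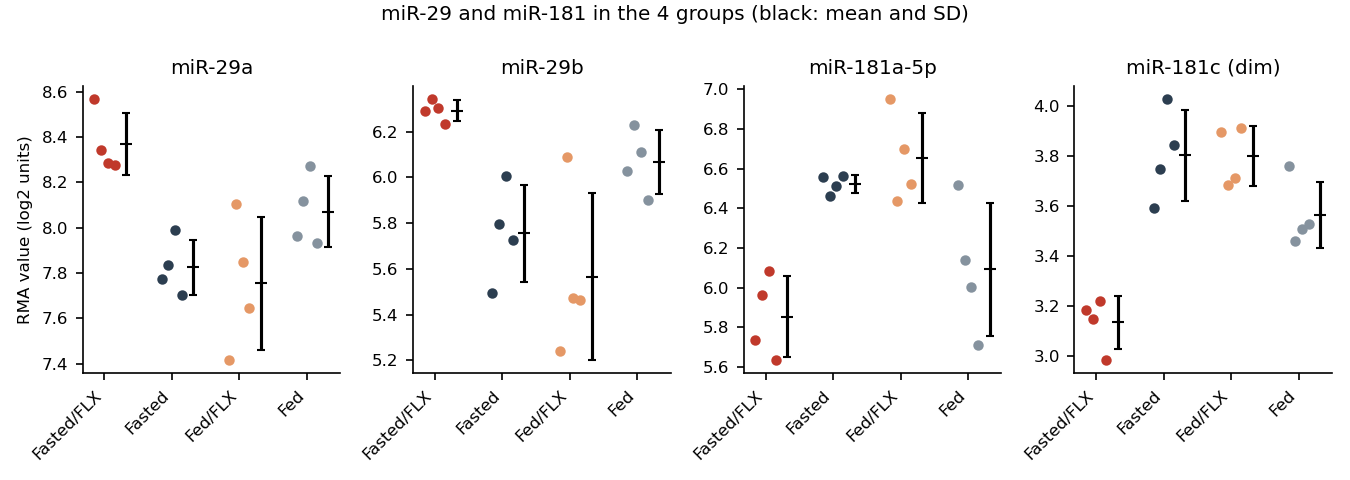
RMA values (log2 units) of miR-29a, miR-29b, miR-181a-5p and miR-181c on the 4 arrays of each group, with the mean and SD in black. The vertical axes differ between panels. The step between Fasted/FLX and Fasted runs opposite to the step between Fed/FLX and Fed in all 4.

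The other 12 called miRNAs had the same sign in fed fish. Of these, 7 were also past the threshold there, where 32 of 248 were called in all (12.9%). These 7 were miR-456 (0.53 in fed fish), let-7i (0.76), miR-99 (0.35), miR-30e-3p (0.29), miR-19c (-0.60), miR-30b (-0.50) and miR-26a (-0.31). Their interactions ranged from -0.17 for let-7i (SE 0.23) to 0.06 for miR-30e-3p (SE 0.12), with adjusted p-values of 0.751 or more. A p of that size does not show that the differences were equal. Over all 248 miRNAs, 142 had the same sign in both feeding states.

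**Figure D5:**
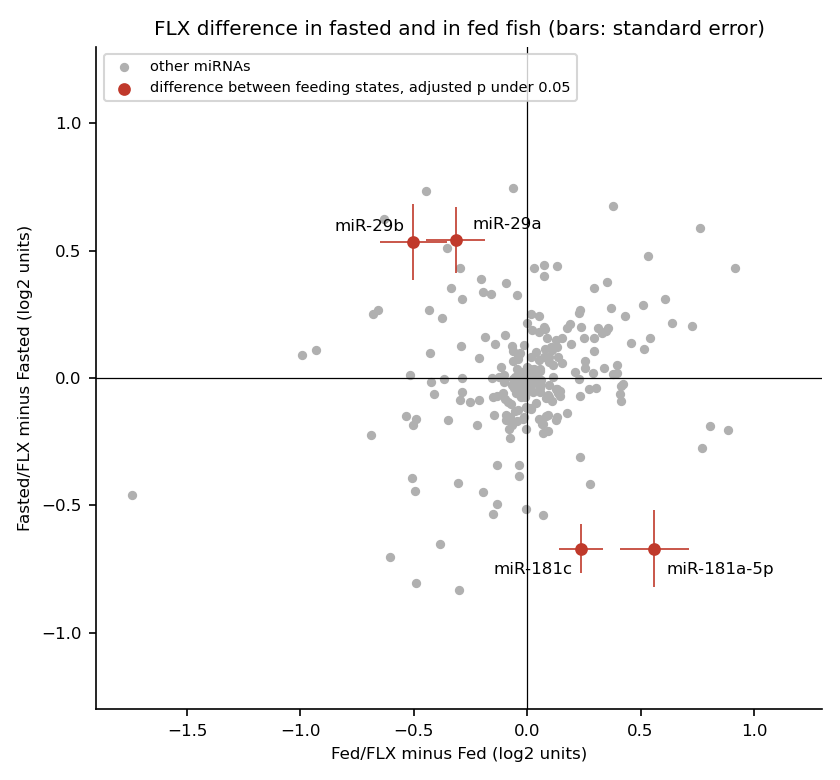
For each of the 248 miRNAs, Fed/FLX minus Fed on the horizontal axis and Fasted/FLX minus Fasted on the vertical axis (both in log2 units). The 4 miRNAs with an interaction at an adjusted p under 0.05 are red, with bars of 1 standard error, and lie in the quadrants where the signs are opposite.

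The study singled out 13 miRNAs by setting its treatments against Fed, a different comparison from that of Fasted/FLX with Fasted. The study also measured its up-regulated miRNAs by qPCR on the same RNA and reported a strong correlation with its array values. The qPCR was not examined here. For let-7d, miR-140-5p, miR-301a and miR-457b the study's discussion also states a very large increase over fasting alone, which is the comparison made here. In the fit over 16 arrays none of these was called, and 0 of 248 miRNAs differed by 2-fold. On scaled total gene signals let-7d differed by 3.30 and miR-140-5p by 1.72, and neither was called (limma adjusted p = 0.128 and 0.608). These signals were cut at a floor before the logarithm. In the alternative processing settings the difference reached 3.14 for miR-457b and 1.84 for miR-301a, and neither was called in any (lowest limma adjusted p = 0.115 and 0.562). Of the 13, 2 were called here, let-7i (higher) and miR-181c (lower), where 6.45% of all miRNAs were called. That list was chosen by the study on these same samples and is not independent evidence. let-7d read 4.06, 3.70, 3.89 and 3.97 on the Fasted/FLX arrays, against 3.79, 3.56, 3.59 and 3.71 on the Fasted arrays, and the groups overlapped (difference 0.24, limma adjusted p = 0.170). Without Fasted/FLX replicate 2 let-7d passed the threshold (0.32, adjusted p = 0.0457). Fewer than 50% of its spots were well above background on every array, up to 49.2% on a Fasted/FLX array. This share pools probe sequences of unlike brightness. For the brighter let-7d probe sequence the mean share was 60.8% in Fasted/FLX and 8.59% in Fasted. For the dimmer it was 0% and 0.83%. miR-140-5p, known for its role in cartilage and palate development, was detected on 2 Fasted/FLX arrays and on 0 Fasted arrays. Against the detection bound of the Fasted arrays its mean was 1.06-fold higher, and the difference was not called (limma adjusted p = 0.597). miR-103, a regulator of insulin sensitivity in mice, was lower by 0.42 without overlap, at an adjusted p of 0.103. miR-103 passed the threshold when arrays were scaled to the 75th percentile of detected miRNAs (-0.59, adjusted p = 0.0453) and when the fit held these 2 groups alone (-0.43, adjusted p = 0.0445). All 3 members of the miR-103 and miR-107 family had negative differences, with a median of -0.31, and 0 were called in the fit over 16 arrays. miR-205 (-0.46, adjusted p = 0.573), miR-193a (-0.19), miR-739 (listed as miR-739_v12.0, -0.15), miR-22b (-0.04), miR-301a (0.02), miR-19a-3p (0.11), miR-457b (0.19) and miR-210-5p (0.27) were not called. Under the 4 scalings without quantile normalization miR-739_v12.0 was lower by more and was called, with differences from -1.06 to -0.63 and adjusted p-values from 0.00982 to 0.035.

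Quantile normalization gives every array the same set of spot values, which holds the values at the top of the signal range close together by construction, so that no result is read from the small differences of the 5 miRNAs with the highest array signals. miR-122, detected on all 8 arrays, read 12.32, 12.33, 12.33 and 12.33 on the Fasted/FLX arrays, against 12.27, 12.32, 12.31 and 12.07 on the Fasted arrays (difference 0.08, 95% interval from -0.22 to 0.39). let-7a, miR-22a, miR-192 and miR-739_v12.0 had differences between -0.16 and -0.01. Under the scalings without quantile normalization the sign of miR-122, let-7a, miR-22a and miR-192 changed in at least 1 setting. Of the 11 miRNAs of the list of liver-enriched miRNAs, 0 were called, where 6.45% of all miRNAs were called, and the median difference was -0.01. The largest were miR-101b (0.43, adjusted p = 0.288) and miR-194a (-0.39, adjusted p = 0.250).

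Markers of other cells that a liver sample can hold were counted in the same way. In bulk tissue, fewer cells of a type and less of a miRNA per cell cannot be told apart. In red blood cells, miR-144 and miR-451 are made from the same transcript. miR-144 read 6.36, 5.11, 5.35 and 5.31 on the Fasted/FLX arrays, against 6.73, 6.23, 6.12 and 6.38 on the Fasted arrays, the most negative difference of any detected miRNA (-0.83). Fasted/FLX replicate 1 lay within the Fasted range, the interval ran from -1.76 to 0.09, and miR-144 was not called (limma adjusted p = 0.370). miR-451 differed by -0.28 (adjusted p = 0.664). The summed linear level of both ran from 535 to 855 on the Fasted/FLX arrays and from 735 to 1094 on the Fasted arrays.

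Of the miRNAs enriched in pancreas, which lies close to the liver in zebrafish, 3 of 6 were detected. These were miR-216a (-0.80, adjusted p = 0.170), miR-216b (-0.54, adjusted p = 0.656) and miR-217 (-0.53, adjusted p = 0.691). The islet miRNA miR-375 was not detected on any of the 8 arrays. The summed level of the 6 ran from 55.5 to 128 on the Fasted/FLX arrays and from 99.3 to 208 on the Fasted arrays. For the lists of white blood cells (4 of 8 detected), endothelium (3 of 3), mesenchyme (3 of 5) and epithelium (4 of 10), the number of members called was 0 and the summed levels of the groups overlapped. Over all miRNAs 6.45% were called. The lists of skeletal muscle, neurons and miR-430, an embryonic family, had 0 members detected. The part of red blood cell or pancreas content in the differences of the 16 called miRNAs was not tested.

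More miRNAs were detected on the Fasted/FLX arrays. The number per array was 91, 83, 84 and 92 in Fasted/FLX and 78, 78, 74 and 75 in Fasted (87.5 ± 4.65 and 76.3 ± 2.06, SD, n = 4 each; two-sided exact permutation p = 0.0286, which no division of 4 against 4 arrays can go below). The difference was 9 on one slide and 13.5 on the other. The 75th percentile of the signal of detected miRNAs before normalization was also higher (499 ± 36.4 in Fasted/FLX and 416 ± 34.0 in Fasted, SD, n = 4 each, exact permutation p = 0.0286), and spots well above background made up 33.2% ± 1.25 of the miRNA spots in Fasted/FLX and 30.2% ± 1.91 in Fasted (exact permutation p = 0.0857). The part of array brightness in the detection count was not tested. Under the scanner software's own mark, the mean difference was 4.5 miRNAs (exact permutation p = 0.314).

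miRNAs detected on more Fasted/FLX arrays numbered 31, against 7 detected on more Fasted arrays. By at least 2 arrays the numbers were 15 and 1, the 1 being miR-19c. Detection on 4 arrays of one group and 0 of the other was seen for let-7i and miR-139 alone. miR-222a and miR-462 were detected on 3 Fasted/FLX arrays and 0 Fasted arrays. Against the detection bound of the Fasted arrays their means were 1.02-fold and 1.20-fold higher. Neither difference was called (limma adjusted p = 0.950 and 0.516).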

How the data were processed

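The authors deposited the scanner software's output for each array (Agilent Feature Extraction 11.0.1.1, per the labels) and the background-subtracted intensity of every spot was taken from it, before any normalization between arrays. A table of processed values was also deposited and was not used here. Sequences of the miRNAs were not used here.

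The study's methods name RMA without settings, and it was rebuilt in R 4.3.3 with limma 3.58.1. The normal-exponential background model (rma75) was fitted to all spots, control spots and outlier spots (267 to 641 per array) were removed, 16 arrays were quantile-normalized, and log2 values were summarised by median polish (20 rounds at most). Groups were compared by limma, fitting the 4 group means to 16 arrays (lmFit, eBayes), with Benjamini-Hochberg adjustment over 248 miRNAs. No miRNA was filtered out. Single values per array were compared by exact permutation. Where a miRNA was detected on 0 arrays of a group, the fold is a lower bound, for which each array of that group was given the level of its dimmest detected miRNA, or the miRNA's own level if higher. This bound allows for signal below detection and not for the spread between arrays. For let-7i its own level was the higher on every Fasted array, so no bound is given. Arrays have no depth, and precision is limited by their number.

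Names were matched to miRNA genes of the RefSeq zebrafish annotation for neighbourhood alone, because the files use another build. Replicate numbers were checked for pairing by the correlation of same-numbered residuals. The steps were tested on simulated data. Figures used Python 3.11.15 and matplotlib 3.10.9.

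The miRNAs named are those called here or in the interaction, the 5 largest differences in each direction and the 5 highest levels among detected miRNAs, those detected on all arrays of 1 group and on 0 of the other, the 13 miRNAs the study names, and members of the lists as examples. The members, lists and rules were chosen with earlier results of these data known. miR-222a and miR-462 were chosen after their values were seen. Alternatives covered normalization, background, summary, filtering, blocking by slide or replicate, the variance model, each array left out, and the methods' test. Centring on detected miRNAs and probe-wise values were added after seeing the data.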

Additional observations from a re-analysis of the deposited data

Results flagged for a closer look

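The interaction of FLX and feeding state passed the threshold for 4 miRNAs by limma: it was -1.23 for dre-miR-181a-5p, -0.91 for dre-miR-181c, 0.86 for dre-miR-29a and 1.04 for dre-miR-29b, each with opposite signs in fasted and fed fish. The difference itself was tested here, and the part of array brightness in it was not tested.

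In 3 groups of 4 arrays, 1 array stood apart from the others. dre-let-7a read 10.41 on Fasted/FLX replicate 3, where the other 3 arrays lay between 10.29 and 10.31. dre-miR-301a read 3.73 on Fasted/FLX replicate 1, against 3.38 to 3.42 on the others. dre-miR-456 read 4.54 on Fasted replicate 2, against 4.29 to 4.33 on the others, and without that array its difference was 0.54 (limma adjusted p = 1.2e-04). Of 76 groups checked, 3 met this rule, where chance alone marks about 1 in 20.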

How the results depend on the processing

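All 16 called miRNAs kept their direction in every setting that gave them a value, although the blocks, the variance trend and the filter could not change it. The count of 16 became 8 without quantile normalization (7 higher, 1 lower, 5 shared with the 16, all higher), 8 with spots scaled to the 75th percentile of all miRNA spots (3 higher, 5 lower), 6 on scaled total gene signals (1 higher, 5 lower), 10 with a variance trend (3 higher, 7 lower), 8 when centred on detected miRNAs (1 higher, 7 lower), and 42 at an unadjusted p. With 1 array left out it ranged from 2 to 15. The methods' test called 20 and the slide block 12. Without quantile normalization the median difference over all miRNAs was 0.15, against -0.0035 with it, and the calls shifted towards higher miRNAs. For the 49 miRNAs detected on all 16 arrays the median was 0.37 without it, with 39 of them higher. With quantile normalization that median was 0.058, with 28 higher.

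The count with at least 2-fold was 2 with either 75th percentile scaling of spots and on total gene signals, and 3 without background correction (1 higher, 2 lower). The count of interactions was 0 without quantile normalization, and with 1 array left out ranged from 3 to 6. The difference of 11.25 in miRNAs detected per array was 11 at 25% of spots (exact permutation p = 0.0571), 3.75 at 75% (p = 0.286), 4.5 by the software mark (p = 0.314), and 9.75 to 12.8 with 1 array left out (p = 0.0571 without Fasted replicate 3). The difference of 3.01 percentage points in spots above background ranged from 2.40 to 3.91, and its exact permutation p reached 0.0286 only without Fasted replicate 1.

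Signs turned only for miRNAs that were not called. miR-739_v12.0, not called either, was called lower under the 4 scalings without quantile normalization. Without quantile normalization let-7a was 0.51, miR-192 0.21, miR-22a 0.49 and miR-22b 0.22. With the 75th percentile of detected miRNAs, let-7a was 0.24, miR-22a 0.22, miR-122 -0.011 and miR-301a -0.058, and with that of all spots they were 0.23, 0.21, -0.021 and -0.029. On total gene signals let-7a was 0.098, miR-22a 0.091, miR-122 -0.16 and miR-19a-3p -0.13. The mean over spots gave miR-22a 0.0059. Centring gave miR-122 -0.0063 and miR-301a -0.067. With 1 array left out, miR-301a ranged from -0.067 to 0.090, miR-22a from -0.052 to 0.034, miR-22b from -0.10 to 0.018 and miR-19a-3p from -0.046 to 0.24.

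Same-numbered Fasted/FLX and Fasted arrays, which lie side by side on a slide, correlated between -0.14 and -0.0034, so the numbers were not taken to pair them. With the replicate block limma called 14 miRNAs, 13 of them among the 16, and 5 interactions, and miR-139 (adjusted p = 0.0718), miR-10d-3p (0.0906) and miR-30b (0.0995) missed the threshold. Detection limits what can be said of the 143 miRNAs below background on all 8 arrays.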
